A study of Mus musculus with 9 samples.

Results

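Expression of 50 genes of cell division was measured in mouse lung squamous tumors with and without knockdown of *Tmprss11b*, a membrane-bound serine protease. The genes were chosen by symbol as proliferation markers or as parts of the machinery of S phase, DNA replication and mitosis, out of 19481 genes in the count table. All 50 were in the table and all 50 passed the filter on low counts, which kept 14725 genes. The tumors were allografts of the KLN205 line, derived from a squamous carcinoma of mouse lung, grown under the skin of wild-type DBA/2 mice with an intact immune system. The cells carried a SMART doxycycline-inducible shRNA vector with a control shRNA (shControl) or with either of 2 shRNAs against *Tmprss11b*, numbered sh2 and sh3 in the labels and called shRNA1 and shRNA2 by the study. There were 3 tumors in each of the 3 groups, labelled as biological replicates. Mice of all groups, controls included, drank doxycycline water from the time the average tumor volume was 100 mm3. RNA was taken from a piece of whole tumor, which holds carcinoma cells together with host stroma and leukocytes of the same species. In such bulk samples, fewer dividing cells and less RNA of these genes per cell cannot be told apart.

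A dividing cell copies its DNA in S phase and shares the copies out in mitosis, and the genes for both steps are switched on in waves. Cyclin D with *Cdk4* and cyclin E with *Cdk2* release E2F factors from the retinoblastoma protein, and E2F factors then raise the genes for origin licensing and DNA synthesis. Later, B-Myb (*Mybl2*) and *Foxm1* bind with the MuvB complex at promoters of mitotic genes, such as cyclin B, *Plk1* and *Aurka*, and the anaphase-promoting complex ends mitosis by marking cyclin B and securin for destruction. Because most of these RNAs fall when cells leave the cycle, their levels are widely read as a measure of how much of a tumor is dividing. The question put to the data was whether tumors with *Tmprss11b* knockdown held less RNA of these genes when they were taken out.

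The targeted gene, listed as *Tmprss11bnl*, had 18, 51 and 42 counts in the control tumors, 7, 2 and 5 counts in the sh2 tumors and 10, 4 and 5 counts in the sh3 tumors. Every shRNA tumor was below every control tumor. The mean of both shRNAs gave a log2 fold change of -2.63 ± 0.46 against shControl (SE, unadjusted P = 0.000298, FDR = 0.982 by the edgeR quasi-likelihood test). Total counts were 20653219 to 24047784 per tumor, so that 3 counts correspond to 0.125 to 0.145 CPM, which is the count scaled to the size of the library. One tumor, sh3 replicate 2, stood apart: the ribosomal RNA precursor *Rn45s* took 3.16% of its counts, against 1.14% to 1.67% in the other 8 tumors, and short genes were high and long genes low in it. Its part in single fold changes is given beside them where its value was the highest or the lowest of a gene shown in full. Epithelial markers of the carcinoma (10 genes, among them *Krt8*, *Krt14* and *Epcam*) summed to 4759 to 10128 CPM and were present in every tumor.

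The promoters of many of these genes carry short sequences through which the waves of expression are set. The CHR element (TTTGAA or TTCGAA) is bound by MuvB, the CCAAT box (CCAAT) by NF-Y, and E2F-type sites (here TTT, then 2 bases that are each C or G, then CGC) by E2F factors. The RefSeq promoter table (GRCm38.p6) held 40 of the 50 genes, and the 250 bases before the start were searched on both strands. The 120 bases before the RefSeq start are shown for 5 genes, 4 with a CHR element in this stretch and *Mcm6* with E2F-type letters, as examples of each motif in a marker, a mitotic gene or a replication gene described below. Capitals mark the letters of the 3 motifs.
*Cdk1* (chr10:69352913-69353032, minus strand): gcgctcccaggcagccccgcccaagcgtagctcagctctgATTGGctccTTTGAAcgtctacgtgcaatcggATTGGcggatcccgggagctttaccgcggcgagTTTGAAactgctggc
*Top2a* (chr11:99024190-99024309, minus strand): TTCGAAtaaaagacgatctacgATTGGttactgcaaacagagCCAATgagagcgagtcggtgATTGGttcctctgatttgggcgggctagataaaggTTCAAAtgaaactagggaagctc
*Mki67* (chr7:135716380-135716499, minus strand): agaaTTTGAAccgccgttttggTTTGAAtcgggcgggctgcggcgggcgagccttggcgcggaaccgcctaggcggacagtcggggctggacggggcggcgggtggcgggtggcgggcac
*Cdc20* (chr4:118437344-118437463, minus strand): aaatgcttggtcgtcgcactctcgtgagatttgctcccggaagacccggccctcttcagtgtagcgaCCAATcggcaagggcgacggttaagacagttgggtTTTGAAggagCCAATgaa
*Mcm6* (chr1:128359706-128359825, minus strand): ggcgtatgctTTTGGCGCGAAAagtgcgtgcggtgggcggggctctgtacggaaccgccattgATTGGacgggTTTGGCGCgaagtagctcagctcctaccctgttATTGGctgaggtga
In the 4 printed promoters with a CHR element, *Cdk1* and *Top2a* held it along with CCAAT boxes, *Cdc20* held it between 2 CCAAT boxes, and *Mki67* held it 2 times with no CCAAT box in the stretch shown. In *Mcm6*, the first run of capitals is a pair of overlapping E2F-type matches, 1 on each strand. TTCGAA reads the same on both strands and was counted once. Of the 40 matched genes, 13 (32.5%) held a CHR element, against 19.55% of all 27025 genes in the table, 30 (75.0%) held a CCAAT box, against 37.49%, and 7 (17.5%) held E2F-type letters, against 2.16%. Counted over single promoters of the same length, the shares were 17.15%, 33.85% and 1.86% of 32851. These matches describe letters only, and whether a factor bound there was not measured.

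Summed over the 50 genes, the RNA level of the knockdown tumors overlapped with that of the controls. The sum was 4169, 5358 and 4458 CPM with shControl, 4494, 4569 and 4227 CPM with sh2 and 5211, 4220 and 5677 CPM with sh3. The group means were 4662 ± 620 CPM for shControl, 4430 ± 180 CPM for sh2 and 5036 ± 744 CPM for sh3 (SD, n = 3). The groups overlapped, and the lowest value belonged to a control tumor. The genes took 0.402% to 0.552% of all counts. On the log2 scale, the mean level over the 50 genes was 5.97 ± 0.18 for shControl, 5.90 ± 0.05 for sh2 and 6.04 ± 0.20 for sh3 (SD, n = 3). Per length, in TPM, which also scales by gene length, averaged over the 9 tumors, the most abundant were *Cdk4* (517 TPM), *Ccnd1* (472 TPM), *Ube2c* (243 TPM), *Pcna* (231 TPM) and *Top2a* (153 TPM), and the least abundant were *Ccne2* (9.23 TPM) and *E2f2* (7.42 TPM).

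**Figure D1:**
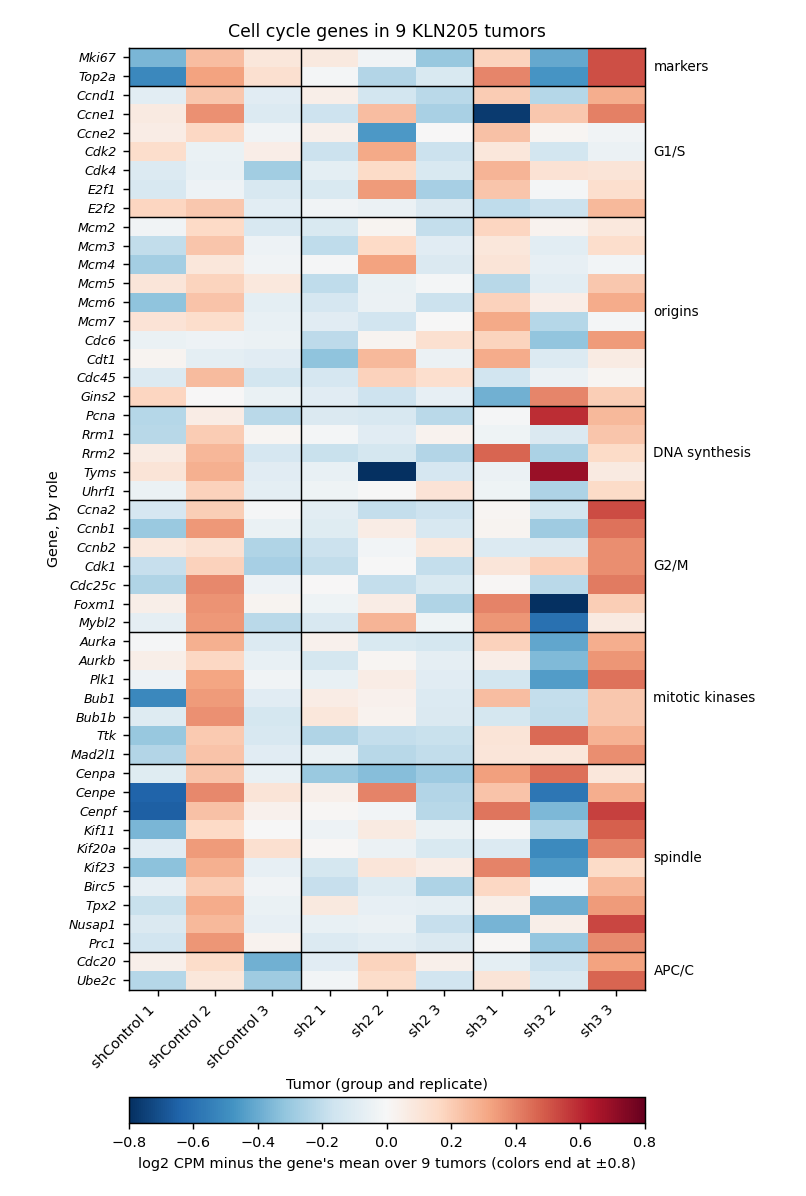
Level of each of the 50 genes (rows, by role) in each of the 9 tumors (columns, by group and replicate), as log2 CPM minus the mean of that gene over the 9 tumors, with red above and blue below the mean. shControl replicate 2 and sh3 replicate 3 are red in most rows (45 and 46 of 50 genes above their mean), shControl replicates 1 and 3 and sh2 replicates 1 and 3 are mostly blue, as is sh3 replicate 2 (13 of 50 above), which also holds the highest value of 5 genes, and sh2 replicate 2 is mixed (22 of 50).

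*Mki67* and *Top2a*, 2 standard proliferation markers, did not separate the groups. *Pcna*, another such marker, is described with the genes of DNA synthesis. *Mki67*, which encodes the Ki-67 antigen of cycling cells, was at 157, 239 and 215 CPM with shControl, 213, 198 and 163 CPM with sh2 and 229, 152 and 289 CPM with sh3. Its lowest and highest values both belonged to sh3 tumors, and its log2 fold change was 0.02 ± 0.21 for the mean of both shRNAs (SE, 95% interval -0.46 to 0.51, FDR = 0.997) and 0.13 without sh3 replicate 2. *Top2a*, the topoisomerase that untangles replicated DNA, was at 239, 427 and 373 CPM with shControl, 337, 290.3 and 313 CPM with sh2 and 447, 245 and 487 CPM with sh3. Like *Mki67*, it was lowest in shControl replicate 1 and sh3 replicate 2 and highest in sh3 replicate 3, with a log2 fold change of 0.02 ± 0.24 (95% interval -0.53 to 0.57).

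Among the 7 genes of the passage from G1 to S, *Cdk4* was the nearest to a difference, with higher values in shRNA tumors. *Cdk4*, the kinase partner of cyclin D, was at 284, 294 and 253 CPM with shControl, 290.4, 342 and 282 CPM with sh2 and 371, 332 and 330.2 CPM with sh3. All sh3 tumors were above all control tumors, and sh2 overlapped with the control. The log2 fold change of *Cdk4* was 0.31 ± 0.13 with sh3 (unadjusted P = 0.0406, FDR = 0.753), 0.14 ± 0.13 with sh2 and 0.23 ± 0.11 for the mean of both, the highest of the 50 genes, with an exact permutation P of 0.0952 over the 84 splits of the tumors. *Ccnd1*, cyclin D1, was at 741, 909 and 737 CPM with shControl, 811, 709.6 and 676 CPM with sh2 and 904, 668 and 960.5 CPM with sh3, and the groups overlapped. Its log2 fold change for the mean of both shRNAs was -0.02 ± 0.15, and 0.05 without sh3 replicate 2, its lowest tumor. *Ccne1*, cyclin E1, was at 15.3, 18.7 and 13.5 CPM, 13.0, 17.2 and 12.1 CPM and 8.50, 16.9 and 19.3 CPM in the same order, with its lowest value in sh3 replicate 1. *E2f1*, the first of the activating E2F factors, was at 50.6, 53.7 and 50.6 CPM with shControl, 50.7, 70.1 and 46.0 CPM with sh2 and 64.4, 54.8 and 60.7 CPM with sh3. The sh3 tumors lay above the control tumors for *E2f1* also, by a log2 fold change of 0.22 ± 0.16 (unadjusted P = 0.223). *E2f2*, another activating E2F factor, had the lowest value of this group for the mean of both shRNAs, -0.15 ± 0.15, from 17.4, 18.0 and 14.5 CPM with shControl, 15.1, 15.0 and 14.2 CPM with sh2 and 13.4, 13.7 and 18.5 CPM with sh3, and its groups overlapped. The other cyclin E gene, *Ccne2*, and the kinase *Cdk2* lay at -0.09 ± 0.16 and -0.06 ± 0.14.

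The 10 genes of origin licensing and firing varied within narrow limits. The 6 subunits of the MCM helicase, which unwinds DNA at the fork, had log2 fold changes from -0.17 (*Mcm5*) to 0.10 (*Mcm4*) for the mean of both shRNAs. *Mcm2* was at 115, 131 and 107 CPM with shControl, 107, 119 and 103 CPM with sh2 and 132, 119 and 124 CPM with sh3. Its log2 fold change of -0.01 ± 0.11 had a 95% interval of -0.25 to 0.23, among the narrowest of the list. *Mcm5* was at 112, 119 and 111 CPM with shControl, 91.2, 101 and 104 CPM with sh2 and 89.9, 98.8 and 122 CPM with sh3, so that all sh2 tumors lay below all control tumors while sh3 overlapped, with an exact permutation P of 0.0952 for both shRNAs against the control. *Mcm4* was at 104, 134 and 123 CPM, 125, 157 and 116 CPM and 135, 120.0 and 124 CPM in shControl, sh2 and sh3, with no separation. The loaders *Cdc6* and *Cdt1* lay at 0.09 ± 0.16 and 0.09 ± 0.15, and *Cdc45* and *Gins2*, which complete the active helicase, at -0.01 ± 0.13 and -0.05 ± 0.17 (SE). *Gins2* was lower in all sh2 tumors than in all control tumors (18.4 ± 0.677 against 20.5 ± 1.73 CPM, SD, n = 3), at a level where the spread of the sh3 tumors was 5.58 CPM.

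Of the 5 genes of DNA synthesis, nucleotide supply and maintenance methylation, *Pcna* and *Tyms* had their highest values in 1 tumor, sh3 replicate 2. *Pcna*, the sliding clamp of the DNA polymerases, was at 109.8, 134 and 110.5 CPM with shControl, 119, 117 and 111 CPM with sh2 and 128, 193 and 154 CPM with sh3. The highest value was that of sh3 replicate 2, and the sh3 and control tumors overlapped. The log2 fold change of *Pcna* was 0.42 ± 0.16 with sh3 (unadjusted P = 0.0294, FDR = 0.753) and 0.25 without sh3 replicate 2, beside -0.03 ± 0.16 with sh2. *Tyms*, thymidylate synthase, was at 46.1, 52.2 and 40.3 CPM with shControl, 41.2, 24.2 and 39.1 CPM with sh2 and 41.5, 69.4 and 45.1 CPM with sh3. Its extremes were sh2 replicate 2 and sh3 replicate 2, and its log2 fold change of 0.17 ± 0.25 with sh3 became -0.09 without sh3 replicate 2. *Pcna* and *Tyms* both have processed pseudogenes in the mouse genome, and how shared reads were counted is not given in the sources used here, so their values are less certain. *Rrm1* and *Rrm2*, the subunits of ribonucleotide reductase, lay at -0.01 ± 0.13 and -0.09 ± 0.16, and *Uhrf1*, which keeps DNA methylation through replication, at -0.03 ± 0.12. *Rrm2* was lower in all sh2 tumors than in all control tumors (91.9 ± 2.95 against 110.1 ± 15.1 CPM, SD, n = 3), with a log2 fold change of -0.26 ± 0.18 (unadjusted P = 0.190).

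For each of the 7 genes of entry into mitosis, the tumors of either shRNA overlapped with the control tumors. *Cdk1*, the kinase of mitotic entry, was at 85.4, 110.2 and 80.8 CPM with shControl, 84.5, 96.8 and 85.0 CPM with sh2 and 104, 111 and 126 CPM with sh3. Its level in shControl replicate 2 lay among the sh3 values, and the log2 fold changes were -0.05 ± 0.15 with sh2 and 0.30 ± 0.15 with sh3 (unadjusted P = 0.0770). *Ccnb1*, cyclin B1, was at 27.2, 42.6 and 32.2 CPM, 31.2, 34.9 and 30.7 CPM and 33.9, 27.4 and 45.2 CPM in shControl, sh2 and sh3. The 3 control tumors alone spanned nearly the whole range of *Ccnb1*, and its exact permutation P was 1.00. *Foxm1*, a transcription factor of mitotic genes, was at 76.0, 94.5 and 74.9 CPM with shControl, 71.8, 76.7 and 62.3 CPM with sh2 and 97.3, 42.4 and 84.5 CPM with sh3. Sh3 replicate 2 had the lowest and sh3 replicate 1 the highest *Foxm1*, and its log2 fold change with sh3 was -0.13 ± 0.27 with all tumors and 0.15 without sh3 replicate 2. The remaining members, *Ccna2* (cyclin A2), *Ccnb2* (cyclin B2), *Cdc25c* (a phosphatase that activates *Cdk1*) and *Mybl2*, lay between -0.06 and 0.02 for the mean of both shRNAs.

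The 7 mitotic kinases and spindle checkpoint genes gave a like picture. *Aurka*, the kinase of centrosomes and spindle poles, was at 63.9, 78.2 and 59.6 CPM with shControl, 65.7, 58.9 and 58.2 CPM with sh2 and 73.0, 48.0 and 78.6 CPM with sh3. *Plk1*, a kinase needed throughout mitosis, was at 38.7, 49.6 and 39.1 CPM, 38.2, 41.5 and 37.4 CPM and 36.0, 29.2 and 53.9 CPM in the same order. Both had their lowest value in sh3 replicate 2 and their highest in sh3 replicate 3, with log2 fold changes of -0.08 ± 0.17 and -0.11 ± 0.19 for the mean of both shRNAs, and 0.02 and -0.02 without sh3 replicate 2. *Ttk*, the Mps1 kinase of the spindle checkpoint, was at 13.5, 19.3 and 15.3 CPM with shControl, 14.1, 14.6 and 14.7 CPM with sh2 and 18.0, 22.9 and 20.3 CPM with sh3. *Mad2l1*, the checkpoint protein Mad2, was at 54.0, 74.3 and 59.6 CPM, 61.2, 54.3 and 55.5 CPM and 67.8, 67.7 and 82.3 CPM. For both genes all sh3 tumors lay above all sh2 tumors, and the control tumors spanned values of both. *Ttk* was highest in sh3 replicate 2, and its log2 fold change with sh3 against shControl was 0.35 with that tumor and 0.26 without it. *Aurkb*, *Bub1* and *Bub1b*, which correct attachments of chromosomes or delay anaphase, lay between -0.07 and 0.10.

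The 10 genes of kinetochore, spindle and cytokinesis held the gene with the smallest P of the 50 in any comparison. *Cenpa*, the histone H3 variant that marks centromeres, was at 56.0, 70.0 and 57.6 CPM with shControl, 48.8, 47.3 and 49.0 CPM with sh2 and 75.4, 81.3 and 63.9 CPM with sh3. All sh2 tumors were below all control tumors and all sh3 tumors, and sh3 overlapped with the control through shControl replicate 2. The log2 fold change was -0.34 ± 0.14 with sh2 (unadjusted P = 0.0353, FDR = 0.999) and 0.26 ± 0.14 with sh3 (unadjusted P = 0.0851, FDR = 0.760), the latter 0.19 without sh3 replicate 2, its highest tumor. *Birc5*, survivin of the chromosomal passenger complex, was at 62.8, 75.7 and 64.3 CPM with shControl, 57.7, 61.1 and 55.4 CPM with sh2 and 73.7, 65.2 and 78.8 CPM with sh3, again with all sh2 tumors lowest and sh3 overlapping with the control. *Cenpf*, a large kinetochore protein, was at 63.4, 118 and 102 CPM, 101, 98.5 and 85.6 CPM and 134, 77.7 and 146 CPM, and its lowest value was a control tumor. *Kif20a*, a kinesin of cytokinesis, was at 64.9, 87.5 and 75.6 CPM with shControl, 69.6, 67.0 and 63.3 CPM with sh2 and 63.9, 48.5 and 90.9 CPM with sh3. Its log2 fold change of -0.18 ± 0.19 for the mean of both shRNAs was the lowest of the 50 genes, with an exact permutation P of 0.333, and became -0.08 without sh3 replicate 2. The kinesins *Cenpe*, *Kif11* and *Kif23*, the spindle proteins *Tpx2* and *Nusap1*, and *Prc1*, which bundles midzone microtubules, lay between -0.12 and 0.11.

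The 2 partners of the anaphase-promoting complex had log2 fold changes above 0 with each shRNA, and their groups overlapped. *Cdc20*, its activator at anaphase, was at 48.9, 52.5 and 36.3 CPM with shControl, 44.5, 53.6 and 48.7 CPM with sh2 and 44.9, 42.2 and 59.2 CPM with sh3. *Ube2c*, the enzyme that starts its ubiquitin chains, was at 84.7, 106 and 81.4 CPM, 97.8, 110.0 and 89.3 CPM and 107, 91.2 and 137 CPM, with log2 fold changes of 0.13 ± 0.18 with sh2 and 0.30 ± 0.18 with sh3. The highest *Ube2c* was that of sh3 replicate 3, and the control and shRNA tumors overlapped.

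**Figure D2:**
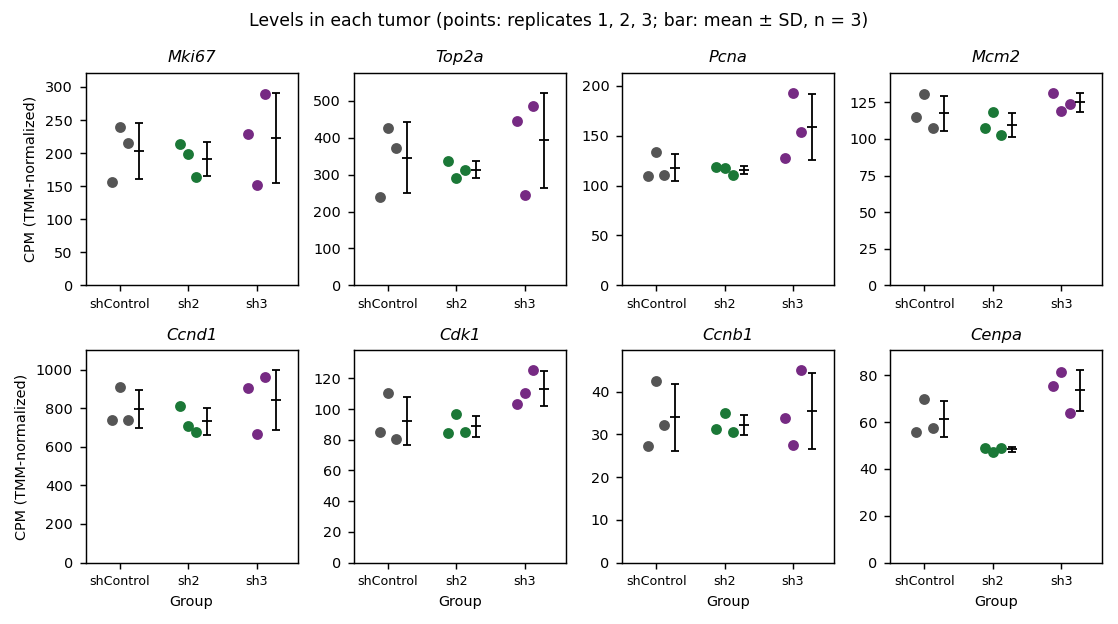
CPM of 8 cell cycle genes (vertical axes, from 0) in each tumor of the 3 groups (points, replicates 1 to 3 from left to right), with the group mean ± SD (n = 3) beside them. The groups overlap for *Mki67*, *Top2a*, *Ccnd1* and *Ccnb1*, and the sh2 points of *Cenpa* lie below all others.

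In the edgeR quasi-likelihood test over all 9 tumors, none of the 50 genes passed an FDR of 0.05 in any comparison, and neither did any other gene (0% of 14725 genes for sh2 against shControl, 0% for sh3 against shControl, 0% for the mean of both shRNAs and 0% for sh3 against sh2). *Tmprss11b* itself did not pass either, so this threshold left out differences as large as the knockdown of a gene with few counts. The smallest FDR of a member was 0.999 with sh2, 0.753 with sh3 and 0.982 for the mean of both. At an unadjusted P under 0.05, no member was higher and 1 was lower with sh2 (*Cenpa*), where 1.64% of all genes were higher and 1.87% lower. With sh3, 2 members were higher (*Cdk4* and *Pcna*) and none was lower, where 3.50% of all genes were higher and 3.13% lower. For the mean of both shRNAs no member was higher or lower, where 1.35% of all genes were higher and 2.74% lower. With 50 genes, these shares of all genes correspond to no more than a few members, so the counts lie near the background. Leaving out 1 tumor at a time, the count with sh2 became 0 without shControl replicate 2 or any 1 sh2 tumor, and the count with sh3 became 5 without shControl replicate 2, 0 without shControl replicate 1 or 3, 3 without sh3 replicate 1 or 2, and 1 without sh3 replicate 3 or sh2 replicate 1 or 3. The DESeq2 Wald test and the edgeR likelihood ratio test also called no member against the control.

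All 3 sh2 tumors lay below all 3 control tumors for 5 members, *Rrm2*, *Cenpa*, *Mcm5*, *Birc5* and *Gins2*, and above them for none, against 5.83% and 5.58% of all genes. All sh3 tumors lay above all control tumors for 2 members, *Cdk4* and *E2f1*, and below them for none, against 6.78% and 5.42% of all genes. No member had all 6 shRNA tumors above or below the 3 control tumors, which 1.22% and 0.958% of all genes had. Over the 50 genes, the log2 fold change had a median of -0.08 with sh2 (36 of 50 below 0), 0.07 with sh3 (34 of 50 above 0) and -0.01 for the mean of both (29 of 50 below 0), beside medians over all genes of 0.01, 0.03 and 0.02. These signs depended on single tumors. The sh2 median became 0.04 without shControl replicate 2, the sh3 median -0.06 without sh3 replicate 3, -0.02 without shControl replicate 1 and 0.17 without sh3 replicate 2, and that of both shRNAs 0.04 without sh3 replicate 2 and 0.10 without shControl replicate 2. The comparisons of sh2 and of sh3 share the control tumors.

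The intervals set bounds on how much these genes could have changed. For the mean of both shRNAs, the half-width of the 95% interval had a median of 0.35 on the log2 scale (0.24 to 0.60) over the 50 genes, beside 0.46 over all genes, and the genes varied less between tumors than most (median SD of log2 CPM over the 9 tumors 0.226, against 0.296 over all genes). The interval lay inside 1.5-fold in both directions for 44 of 50 members, against 45.7% of all genes. All genes tested include genes with few counts, such as *Tmprss11b*, and were not matched to the members for level. These comparisons therefore cannot show that the members were unusually stable. A fall of 1.5-fold or more was outside the interval for 46 members and a rise of 1.5-fold or more for 48. With sh2 alone, a 1.5-fold fall was outside the interval for 34 members and a 1.5-fold rise for 47, and with sh3 alone for 44 and 35. For the remaining members, a change of that size lay within the interval. The whole interval lay inside 1.5-fold for 33 members with sh2 and 31 with sh3, against 5591 and 4850 of all 14725 genes.

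**Figure D3:**
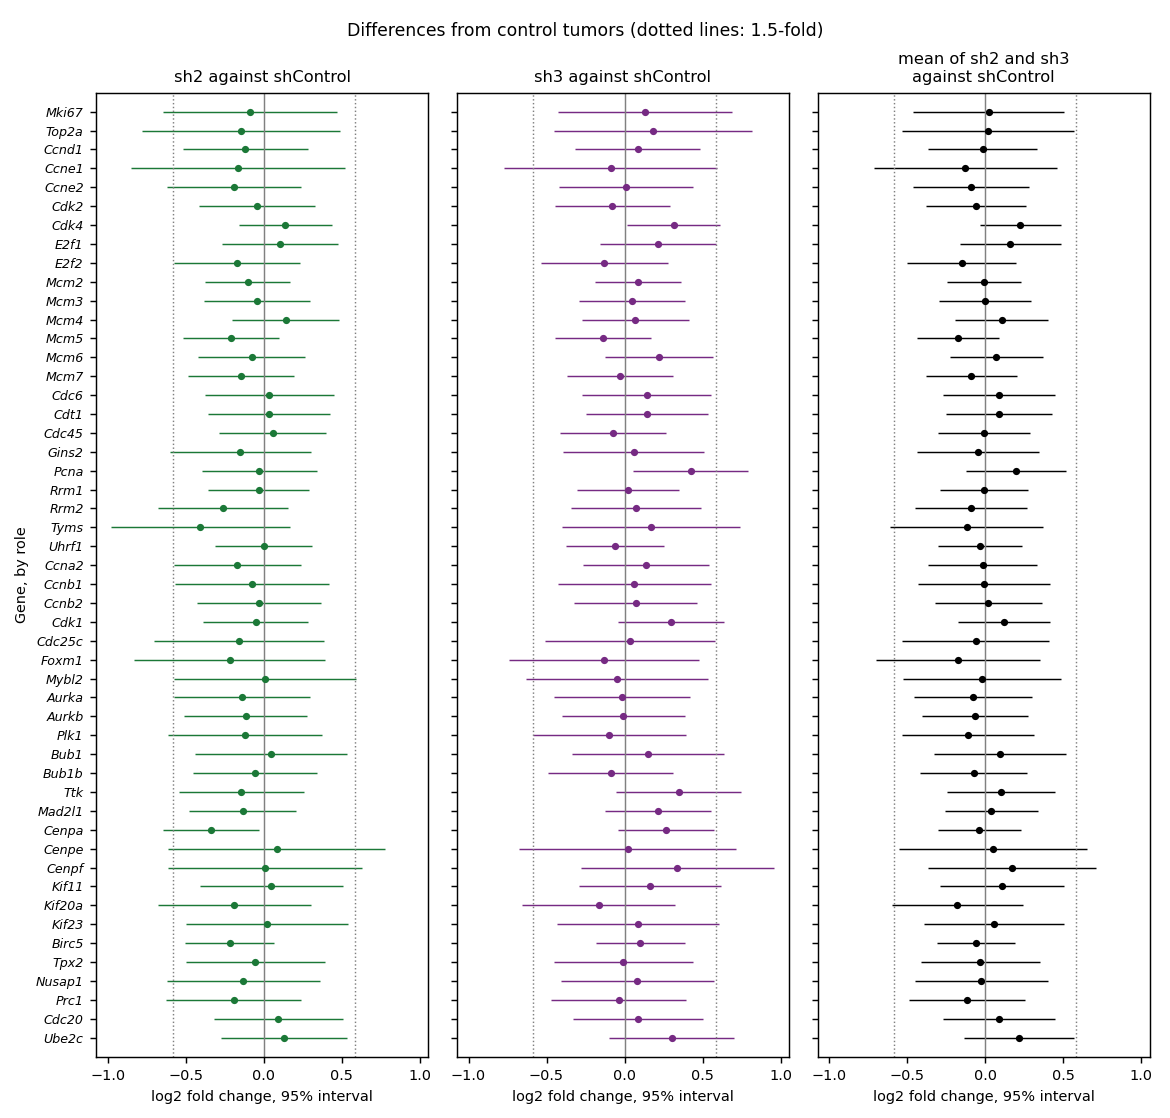
Log2 fold change (points) and 95% interval (lines) of each of the 50 genes for sh2, for sh3 and for the mean of both shRNAs against shControl, with dotted lines at 1.5-fold. The points lie from -0.18 (*Kif20a*) to 0.23 (*Cdk4*) in the right panel, where 44 of the 50 intervals stay between the dotted lines.

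The genes varied together from tumor to tumor, across groups. Of the 50 genes, 45 were above their own mean in shControl replicate 2 and 46 in sh3 replicate 3, while 14 and 10 were above it in shControl replicates 1 and 3, 11, 22 and 8 in the 3 sh2 tumors, 34 in sh3 replicate 1 and 13 in sh3 replicate 2. Over all genes the share above the mean was 47.7% to 51.7% in every tumor. Sh3 replicate 3 held the highest value of 27 members and the lowest of none, and sh3 replicate 2 held the lowest of 16. Levels above the mean in shControl replicate 2 and sh3 replicate 3 were seen in every role. In shControl replicate 2 the medians by role ran from 0.12 above the mean (anaphase-promoting complex partners) to 0.35 (G2 and M genes), and in sh3 replicate 3 from 0.11 (origin licensing) to 0.52 (the 2 markers). Kinetochore and spindle genes were above their mean in 10 of 10 cases in both tumors. Genes with and without the promoter motifs did so together: in sh3 replicate 3 the median was 0.37 with and 0.22 without a CHR element, 0.27 with and 0.20 without a CCAAT box, and 0.22 with and 0.26 without E2F-type letters.

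Gene length went along with part of this spread. Length was read from the ratio of counts to TPM, which is fixed for each gene, and genes were set in 5 quintiles of length. In sh3 replicate 2 the shortest quintile of all genes had a median of 0.38 above and the longest quintile 0.23 below the mean of each gene, on the log2 scale. Of the 6 members in the shortest quintile, *Pcna*, *Cenpa* and *Gins2* were at their highest there (0.59, 0.44 and 0.39 from their means), *Cdk4* was at 0.11, and *Ccnb2* and *Ube2c* were below their means, at -0.12 and -0.12. The 5 members in the longest quintile, *Cenpe*, *Cenpf*, *Mki67*, *Top2a* and *Kif11*, were all below, at -0.58, -0.36, -0.41, -0.47 and -0.24. All 5 are proliferation markers or kinetochore and spindle genes, so length and role cannot be told apart for them. Members of the 2 shorter quintiles together had a median of -0.12 and those of the 2 longer quintiles -0.25 in this tumor, so both sets lay below their means there. The correlation of the deviation with log2 length was -0.47 across the 50 members in sh3 replicate 2 and -0.34 across all genes. It was also -0.47 across the members in shControl replicate 1, with -0.10 across all genes. In shControl replicate 3 it was 0.58 across the members and 0.16 across all genes. These are correlations across genes of 1 tumor, which share a library and are no replicates. With the trend of each tumor with length removed, a fit added after seeing the data, the member medians were -0.02 with sh2, 0.15 with sh3 and 0.06 for the mean of both, beside 0.08, 0.10 and 0.09 over all genes, and no gene passed the threshold. The part of RNA quality was not tested, and the share of *Rn45s* given above is no direct measure of it.

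**Figure D4:**
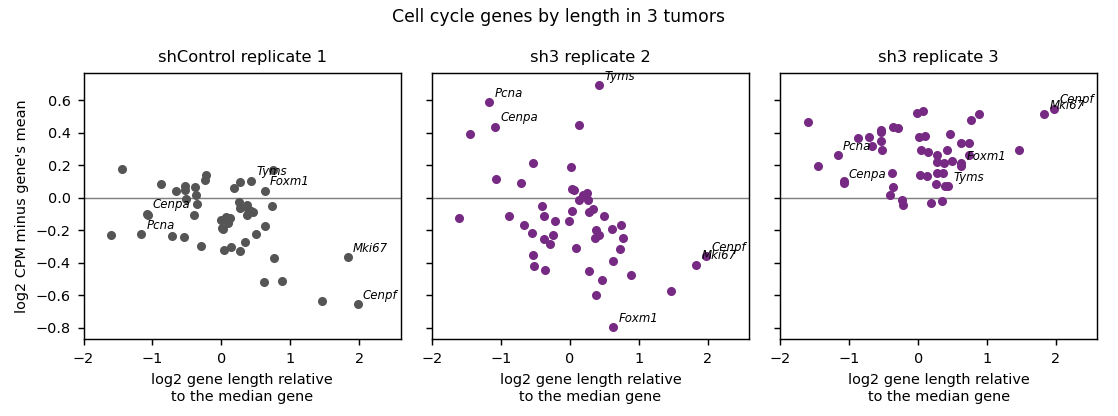
Deviation of each of the 50 genes from its own mean over the 9 tumors (log2 CPM, vertical axis) against its length relative to the median gene (log2, horizontal axis) in shControl replicate 1, sh3 replicate 2 and sh3 replicate 3. The points slope down in the first 2 panels (r = -0.47 in each), and nearly all lie above 0 in the third.

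Small unadjusted P values were more frequent between the 2 shRNAs than between either and the control. With sh3 against sh2, 42 of 50 members had a log2 fold change above 0 and the median was 0.11, beside 0.03 over all genes. At an unadjusted P under 0.05, 7 members were higher with sh3 and none lower, against 3.52% and 3.66% of all genes. They were *Cenpa* (0.60 ± 0.14, unadjusted P = 0.00170), *Ttk* (0.49 ± 0.18, unadjusted P = 0.0215), *Pcna* (0.45 ± 0.16, unadjusted P = 0.0219), *Birc5* (0.32 ± 0.13, unadjusted P = 0.0322), *Cdk1* (0.35 ± 0.15, unadjusted P = 0.0430), *Mad2l1* (0.35 ± 0.15, unadjusted P = 0.0463) and *Tyms* (0.58 ± 0.25, unadjusted P = 0.0486), each with its log2 fold change ± SE in the edgeR quasi-likelihood test. The FDR was 0.673 for each, so none passed the threshold. All sh3 tumors lay above all sh2 tumors for 9 members, these 7 with *Mcm2* and *Mcm6*, and below them for none, against 5.52% and 4.63% of all genes. The DESeq2 Wald test called 1 of them, *Cenpa* (log2 fold change 0.59, adjusted P = 0.0405), and over the alternatives the smallest adjusted P of a member ranged from 0.0405 to 0.970. The count of 7 moved with single tumors. It was 8 without sh3 replicate 1 or without sh3 replicate 2, and 2 without sh3 replicate 3, 1 without sh2 replicate 2 or 3, and 3 without sh2 replicate 1 or shControl replicate 1 or 3. The median became -0.03 without sh3 replicate 3 and 0.24 without sh3 replicate 2. Without sh3 replicate 2, the log2 fold change was 0.53 for *Cenpa*, 0.40 for *Ttk*, 0.28 for *Pcna* and 0.31 for *Tyms*.

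Other genes of the cell cycle, on 5 lists outside the 50, gave no call either. At an unadjusted P under 0.05 for the mean of both shRNAs, 1.35% of all genes were higher and 2.74% lower. Of 10 CDK inhibitors and pocket proteins, which hold cells out of S phase, *Cdkn1a* (p21) was the 1 gene with an unadjusted P under 0.05 for the mean of both shRNAs. Its level was 151, 117 and 84.5 CPM with shControl, 143, 197 and 203 CPM with sh2 and 174, 138 and 141 CPM with sh3, with shControl replicate 1 above sh2 replicate 1 and 2 of the sh3 tumors. Its log2 fold change was 0.50 ± 0.20 (unadjusted P = 0.0338, FDR = 0.982), 0.63 ± 0.23 with sh2 and 0.37 ± 0.23 with sh3. *Cdkn2c* (p18), named after its values were seen, was at 25.9 ± 4.5 CPM with shControl, 17.0 ± 2.6 CPM with sh2 and 19.5 ± 7.6 CPM with sh3 (SD, n = 3). It had the log2 fold change farthest from 0 on this list, -0.51 ± 0.24 (unadjusted P = 0.0649), with all sh2 tumors below all control tumors (-0.61 ± 0.29) and sh3 overlapping with the control. *Cdkn1b* (p27) lay at 0.01 ± 0.13, *Cdkn2a* (p16 and p19) at 0.33 ± 0.30 and *Rb1*, the retinoblastoma protein, at -0.04 ± 0.20 for the mean of both. Of 15 other E2F, MuvB and growth regulators, *Rbbp4*, a MuvB subunit, had 0.27 ± 0.12 (unadjusted P = 0.0482), and *Myc* had 0.21 ± 0.20 (unadjusted P = 0.313). Of 19 other cyclins, kinases and checkpoint regulators, *Cks1b*, which binds cyclin-dependent kinases, had 0.32 ± 0.14 (unadjusted P = 0.0490). *Cks2*, named after its values were seen, had 0.66 ± 0.21 with sh3 (unadjusted P = 0.0125, FDR = 0.753) and -0.16 ± 0.21 with sh2. Its sh3 tumors all lay above all control and sh2 tumors, with the highest value in sh3 replicate 2. With sh3, 2 of the 19 were higher and 1 lower at an unadjusted P under 0.05, against 3.50% and 3.13% of all genes. All sh3 tumors lay above all control tumors for 4 of the 19 and below for 1, against 6.78% and 5.42%. No gene had an unadjusted P under 0.05 for the mean of both shRNAs among 29 other replication genes (median 0.06, 17 above and 12 below 0) or 38 other mitotic genes (median -0.04, 13 above and 25 below 0). With sh2, 31 of the 38 other mitotic genes were below 0 with a median of -0.06, and with sh3, 21 were above 0 with a median of 0.02.

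Markers of other cells in the tumor varied beside these genes, and their part in the levels was not tested. Fibroblast markers (9 genes, among them *Col1a1* and *Pdgfra*) summed to 3269 to 5649 CPM in the control tumors, 2520 to 4187 CPM in the sh2 tumors and 1436 to 2495 CPM in the sh3 tumors. With sh3, 5 of the 9 were lower at an unadjusted P under 0.05, against 3.13% of all genes, and none passed the FDR. The sum was lowest in sh3 replicate 3, the tumor in which the cell cycle genes were highest. In sh3 replicates 1 and 2 it was 1854 and 2495 CPM, where the 50 genes summed to 5211 and 4220 CPM. Leukocyte markers (12 genes) summed to 1217 to 1260 CPM in the control tumors, 739 to 1243 CPM in the sh2 tumors and 602 to 1642 CPM in the sh3 tumors. Endothelial markers (7 genes) summed to between 153 and 266 CPM in all tumors. With sh3, all 7 had a log2 fold change below 0 (median -0.26). Of these, 2 were lower at an unadjusted P under 0.05, against 3.13% of all genes, and none passed the FDR. With sh2, 5 of the 7 were below 0 (median -0.12), none at an unadjusted P under 0.05. Adipocyte markers (6 genes) lay between 8.55 and 88.3 CPM (*Adipoq* at 0 in sh2 replicate 2 and sh3 replicate 3), and erythroid markers (7 genes) between 12.1 and 86.6 CPM. With sh3, 4 of 5 adipocyte markers that passed the filter were lower than in the control at an unadjusted P under 0.05. So were 4 of 6 erythroid markers, against 3.13% of all genes. All 5 adipocyte and 5 of 6 erythroid markers had every sh3 tumor below every control tumor, against 5.42% of all genes. None passed the FDR, and with sh2 none of either list had an unadjusted P under 0.05. The adipocyte sum was 40.2, 88.3 and 67.1 CPM with shControl, 9.22, 8.55 and 65.3 CPM with sh2 and 20.5, 19.1 and 8.55 CPM with sh3. With sh2, all 5 adipocyte markers had a log2 fold change below 0 (median -1.41) and all 6 erythroid markers had one above 0 (median 0.14). Skeletal muscle markers (9 genes) ran from 5.21 CPM in sh2 replicate 3 to 3342 CPM in shControl replicate 3. With sh2, 6 of the 9 were lower than in the control at an unadjusted P under 0.05, against 1.87% of all genes. Their sum was 368, 20.8 and 3342 CPM with shControl and 138, 42.8 and 5.21 CPM with sh2. The groups overlapped, and no muscle marker had every sh2 tumor below every control tumor. Epithelial markers were highest in sh2 replicate 2 (10128 CPM), where 22 of the 50 cell cycle genes were above their mean. Over the 10 epithelial markers, the median log2 fold change was 0.40 with sh2 (8 above 0, from -1.27 to 0.79). With sh3 it was -0.03 (4 above 0, from -0.99 to 0.20). With sh2, 1 was higher at an unadjusted P under 0.05, against 1.64% of all genes, and with sh3 none was. For no epithelial marker did either shRNA group lie wholly above or below the control tumors.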

How the data were processed

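RNA sequencing of 9 KLN205 tumors was analysed, grouped by the labels. Per the labels, poly-A RNA was made into stranded libraries. The submitters' processing notes name FastQC, STAR 2.5.3a, featureCounts, edgeR and the mm10 build, and the annotation, strand setting and handling of reads with several matches are not given in the sources used here. The authors deposited raw counts per gene and TPM, which were used, and 9 columns of CPM and 10 columns of their own comparisons (log2 fold changes and tests), which were not.

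Counts were fitted in R 4.3.3 with edgeR 4.0.16 (filterByExpr, TMM, robust quasi-likelihood, 1 coefficient per group, all 9 tumors), with Benjamini-Hochberg adjustment over all 14725 genes tested and a threshold of 0.05 on the FDR. CPM are TMM-normalized, and log2 CPM has a prior count of 2. Single genes were also compared by exact two-sided permutation of the tumors, whose smallest P is 0.0119 for 6 against 3. Intervals rest on the spread between tumors in this fit. The limit of 3 counts does not allow for copies made by PCR. Promoters were read with Python 3.11.15 and pandas 2.3.3, and plots made with matplotlib 3.10.9.

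Values in every tumor are given for standard markers and regulators, for genes with an unadjusted P under 0.05 in any comparison and for the lowest and highest of each role, 25 of the 50 in all, and for *Cdkn1a* among other cell cycle genes. The 50 genes, the lists, this rule and the tests were chosen with earlier results of these data known. The alternatives were DESeq2 size factors, the DESeq2 1.42.0 Wald test, the edgeR likelihood ratio test, other filters on low counts, only the groups compared, the replicate number as a block, each tumor left out in turn and, added after seeing the data, removal of the trend with gene length.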

Additional observations from a re-analysis of the deposited data

Results flagged for a closer look

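For 4 of the 50 genes, every sh2 tumor lay below and every sh3 tumor above the mean of the control tumors. Single control tumors overlapped with both shRNA groups for *Mcm6*, *Ttk* and *Mad2l1*, and with sh3 for *Cenpa*. The 2 shRNAs thus lay on opposite sides of the control mean, not of the control tumors. The 4 genes were picked by these same values. The log2 fold change of sh3 against sh2 was 0.30 for *Mcm6*, 0.49 for *Ttk*, 0.35 for *Mad2l1* and 0.60 for *Cenpa*. The difference between the 2 shRNAs was tested in the edgeR quasi-likelihood fit, and none of the 4 passed the threshold. Over all genes, 171 (1.16%) lay on opposite sides in this direction and 164 (1.11%) in the other, where none of the 50 was found. Groups of 3 tumors were not tested for outliers.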

How the results depend on the processing

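No member passed the threshold against the control in any alternative, and the only call among the 50 was *Cenpa* for sh3 against sh2 with the DESeq2 Wald test (1 member past the threshold). Over all genes, where the quasi-likelihood test called 0, the DESeq2 Wald test called 2 with sh2, 41 with sh3, 9 for the mean of both shRNAs and 48 for sh3 against sh2, and the edgeR likelihood ratio test called 8, 8 and 14 in the last 3 of these comparisons. The cause of these differences between tests was not tested. With 1 tumor left out at a time, the median over the 50 genes (log2 fold change) ranged from -0.15 to 0.04 with sh2, from -0.06 to 0.17 with sh3, from -0.09 to 0.10 for the mean of both and from -0.03 to 0.24 for sh3 against sh2, beside an SD of 0.16 between tumors. Where a group then held 2 tumors, the spread was shared with the other groups. Of 400 values of the 25 named members for the mean of both under the alternatives, 36 had the other sign, in 14 members, all of them without a call. Same-numbered tumors of different groups correlated no better (mean r = -0.10, 9 pairs) than others (0.05, 18 pairs). The mean of each group was taken off first, which ties these 2 values together. They therefore cannot decide whether the numbers pair the tumors. In the fit with a replicate block, the medians were -0.07 with sh2, 0.07 with sh3, -0.01 for the mean of both and 0.12 for sh3 against sh2, with 0 calls, and the members with an unadjusted P under 0.05 numbered 0, 1, 0 and 3. The fit on only the groups compared was not run for the mean of both shRNAs, where all groups are compared.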
